A study of Mus musculus with 6 samples.

Results

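The genes described here are 40 mouse germline genes, grouped by their role in meiosis (17 genes), in the piRNA pathway (11 genes) or elsewhere in germ cells (12 genes). Of these, 39 had at least 1 of 56 probes among the 45281 probes of the array, which cover 19057 named genes. Fkbp6, a piRNA pathway gene, was not analysed here because no probe was paired with it in the platform annotation used. Probes were matched to the members by gene symbol, and the list of members was drawn up with earlier results of these data known.

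RNA was measured in mouse embryonic fibroblasts (MEFs) on Illumina BeadChips, single-colour arrays on which each probe is meant to bind part of a transcript. The Dnmt1+/+ group (3 arrays) had the genotype Trp53-/- Dnmt1+/+, and the Dnmt1-/- group (3 arrays) the genotype Trp53-/- Dnmt1-/-, so all cells lacked Trp53. The study describes the Dnmt1-/- cells as homozygous for a hypomorphic allele, and neither treatment nor age is given for either group. Whether the replicates came from separate cultures is not in the labels. The p-values therefore rest on differences among the 3 arrays of a group, and these may be technical. The sources used here name 1 line of cells per genotype, and a difference of genotype cannot be told apart from a difference of line.

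Germ cells run programmes that somatic cells keep silent. In meiosis, homologous chromosomes are cut by SPO11, repaired through DMC1 recombinase, tied together by the synaptonemal complex (SYCP and SYCE proteins) and held by cohesins with meiotic subunits (REC8, STAG3, SMC1B). In the piRNA pathway, PIWI proteins carry small RNAs that silence transposons, and Tudor-domain proteins and helicases load and process these RNAs in perinuclear granules. Promoters of many such genes carry DNA methylation in somatic tissues, and Dnmt1 encodes the maintenance methyltransferase that copies methylation after replication. The comparison asks which of these genes had RNA in MEFs with normal methylation and in MEFs with severe hypomethylation.

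Signals below are normalised and on the log2 scale. Dim probes with a high detection p had a median near 4.23 on every array, and a probe was taken as above background on an array at a detection p under 0.01. The lowest signals above background lay between 4.77 and 5.07. Each gene was read from its brightest probe, by the mean of all 6 arrays. It is said to have risen or fallen at a limma adjusted p under 0.05 over all 45281 probes. Where a gene stayed below background on every array of 1 group, its level there is a bound and its fold is written "at least": the mean of its brighter group against the mean, over the dimmer group's arrays, of the higher of that array's lowest signal above background and the probe's own signal.

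The labels were checked first. Dnmt1 itself measured 9.79, 9.74 and 9.42 on the Dnmt1+/+ arrays and 8.16, 7.06 and 7.42 on the Dnmt1-/- arrays, 4.31-fold lower (adjusted p = 0.00017). The raw signal of Dnmt1+/+ arrays averaged 325.5 to 357.1 and that of Dnmt1-/- arrays 217.1 to 396.6, with Dnmt1-/- replicate 1 brightest. Of 12 fibroblast markers, 8 were above background on all 6 arrays. The summed linear signal of all 12 was 15668 to 18743 in Dnmt1+/+ and 13600 to 16034 in Dnmt1-/- MEFs. Thy1 (at least 2.11-fold) and Fn1 (4.21-fold) fell, Thy1 to background on every Dnmt1-/- array, and S100a4 rose (2.98-fold, adjusted p = 0.014, but 0.067 without Dnmt1+/+ replicate 1, 0.14 with 1 prior variance and 0.33 with median scaling). The cell composition of the cultures was not tested, and in bulk RNA fewer cells of a type and less RNA per cell cannot be told apart. None of 11 primordial germ cell and pluripotency markers, Pou5f1, Nanog and Dppa3 among them, was above background on any array, and their summed linear signal was 220.4 to 228.1 in Dnmt1+/+ and 220.1 to 228.6 in Dnmt1-/- MEFs. Dppa4 and Dppa5a, which belong to another list, were above background on every Dnmt1-/- array and on no Dnmt1+/+ array. Dppa4 is given below. Dppa5a was close to background, at 5.39, 5.80 and 5.13 on the Dnmt1-/- arrays, and did not pass (adjusted p = 0.061). The other Dppa5a probe was below background on every array. Of 9 spermatid markers 8 were below background throughout, with Ldhc above it on 1 Dnmt1-/- array (summed signal of all 9, 177.1 to 181.0 and 180.1 to 205.7). Of 8 oocyte markers 6 were below background throughout, with Zp3 and Gdf9 each above it on 1 Dnmt1-/- array (summed signal of all 8, 159.8 to 166.9 and 161.2 to 186.6).

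Most of the germline genes gave no signal above background in either genotype. Of the 39 genes, 28 were above background on 0 of 6 arrays, as were 44 of the 56 probes. These 28 genes measured 4.13 to 4.95 on single arrays. In Dnmt1+/+ MEFs 36 members were below background on every array, beside 10049 of all 19057 genes. In Dnmt1-/- MEFs 29 members were. The number of members above background was 2 on each Dnmt1+/+ array and 9, 6 and 5 on Dnmt1-/- replicates 1, 2 and 3. Over all 45281 probes the number was 15046, 15401 and 15783 on the Dnmt1+/+ arrays. On the Dnmt1-/- arrays it was 16499, 14699 and 14764. Tdrkh was the 1 member above background on all 6 arrays. Tex19.1 and Sohlh2 exceeded background on 3 of 3 Dnmt1-/- and 0 of 3 Dnmt1+/+ arrays, a pattern that 1.12% of all genes showed. The opposite pattern was shown by 0 members and by 0.861% of all genes.

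**Figure D1:**
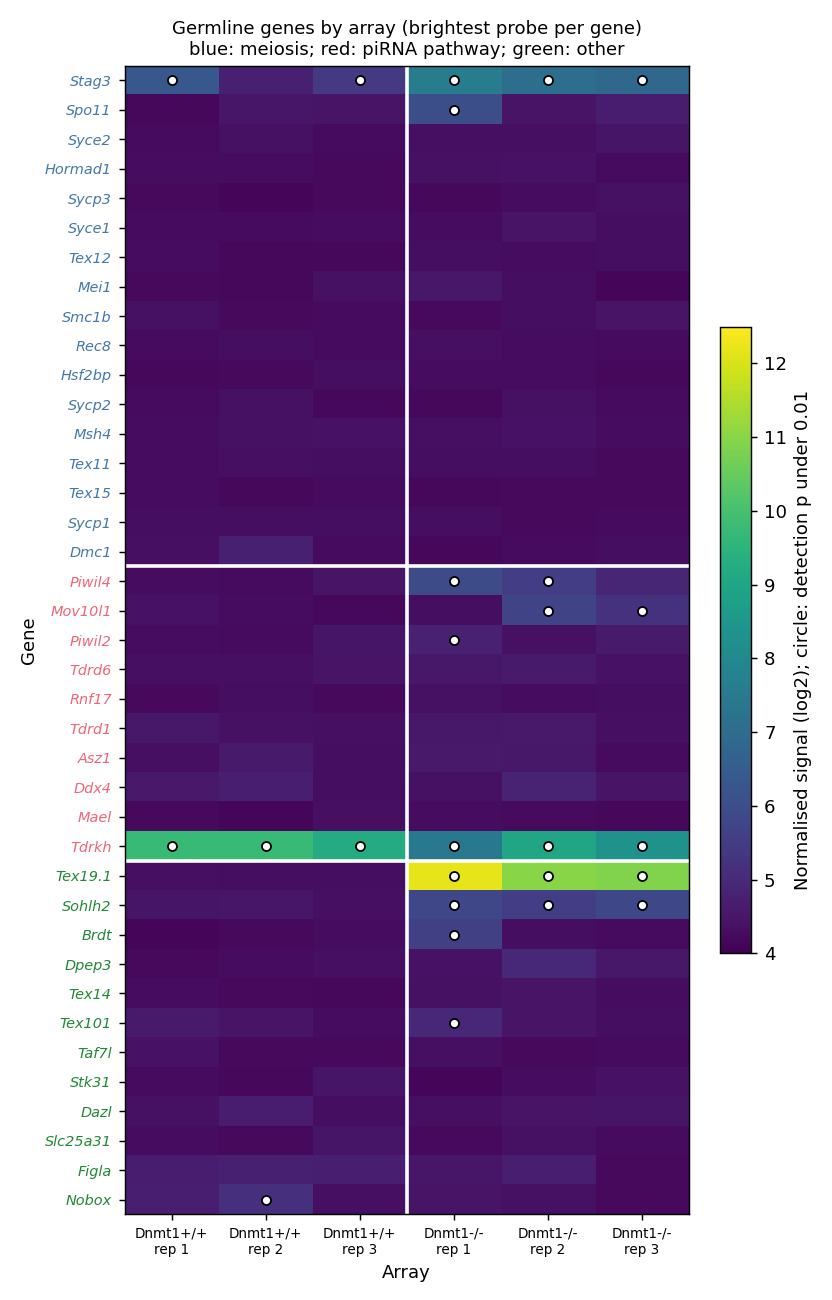
Normalised signal (log2, colour) of 39 germline genes (rows, brightest probe per gene) on the 6 arrays (columns), with a circle where the detection p was under 0.01. The Dnmt1+/+ columns hold 2 circles each and the Dnmt1-/- columns 9, 6 and 5, and 28 rows hold none.

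Against this background 4 members rose in Dnmt1-/- MEFs (Tex19.1, Stag3, Sohlh2 and Piwil4), 1 fell (Tdrkh) and 34 did not pass the test. The 4 that rose are 10.3% of the 39 members, beside 4.06% of all 19057 genes, and 2.79% of all genes fell. Of the genes below background on every Dnmt1+/+ array, 2.1% rose, and these include Tex19.1, Sohlh2 and Piwil4 among the 36 such members. All 3 Dnmt1-/- arrays lay above all 3 Dnmt1+/+ arrays for 6 members and for 11.9% of all genes. The reverse held for 1 member and 13.1% of all genes. The median difference over the members was 0.08 on the log2 scale, beside 0.00 over all genes.

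**Figure D2:**
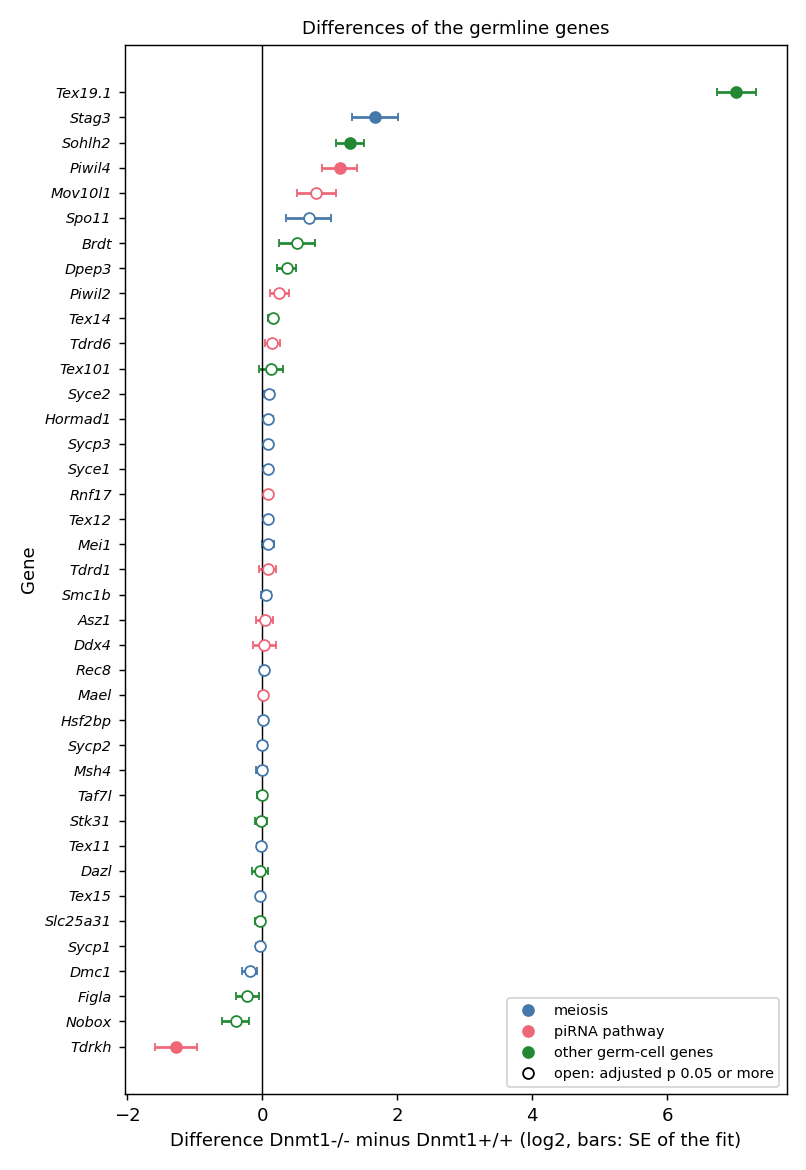
Difference of each germline gene, Dnmt1-/- minus Dnmt1+/+, in log2 units with the standard error of the fit, coloured by role and filled where adjusted p was under 0.05. Tex19.1 stands at 7.02, the other 3 genes that rose between 1.15 and 1.67, Tdrkh at -1.28, and the 28 genes never above background between -0.22 and 0.37.

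The promoters of the members are shown because methylation acts on CpG dinucleotides. RefSeq promoter windows on GRCm38.p6, from 250 bases before to 50 after the start of the gene (300 bases), matched 33 of the 39 members. Their windows held a median of 19 CpG (6 to 38), beside 7 over 27025 genes, and 26 of 33 (78.8%) held 15 or more, beside 35.2% of all genes. For promoters, all genes are the 27025 with a window, which were not limited to genes on the array. Windows of 3 genes that rose and of 2 that stayed below background on every array are printed 5′ to 3′ on the strand of the gene. Capitals mark CpG, the E-box CACGTG and the E2F-type motif GCGGGA or its reverse complement TCCCGC. The windows are Tex19.1 (chr11:121145893-121146192, plus strand), Sohlh2 (chr3:55181794-55182093, plus strand), Stag3 (chr5:138280259-138280558, plus strand), Sycp3 (chr10:88459337-88459636, plus strand) and Ddx4 (chr13:112652261-112652560, minus strand).
Tex19.1: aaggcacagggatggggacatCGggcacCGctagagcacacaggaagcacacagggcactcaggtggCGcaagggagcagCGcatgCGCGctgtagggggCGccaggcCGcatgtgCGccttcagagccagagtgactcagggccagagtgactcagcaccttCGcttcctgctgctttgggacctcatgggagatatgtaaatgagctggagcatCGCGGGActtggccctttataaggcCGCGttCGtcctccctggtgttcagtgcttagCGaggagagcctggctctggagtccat
Sohlh2: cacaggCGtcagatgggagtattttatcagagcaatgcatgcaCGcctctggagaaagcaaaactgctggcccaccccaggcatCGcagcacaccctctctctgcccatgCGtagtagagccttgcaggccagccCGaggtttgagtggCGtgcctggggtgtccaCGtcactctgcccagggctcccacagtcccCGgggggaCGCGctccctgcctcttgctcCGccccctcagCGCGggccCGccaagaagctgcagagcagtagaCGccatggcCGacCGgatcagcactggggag
Stag3: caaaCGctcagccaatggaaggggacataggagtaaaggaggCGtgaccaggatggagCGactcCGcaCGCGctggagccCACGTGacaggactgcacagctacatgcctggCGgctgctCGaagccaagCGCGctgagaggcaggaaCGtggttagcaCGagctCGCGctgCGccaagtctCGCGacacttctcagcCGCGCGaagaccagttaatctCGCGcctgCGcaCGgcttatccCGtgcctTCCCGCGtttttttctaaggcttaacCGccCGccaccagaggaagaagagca
Sycp3: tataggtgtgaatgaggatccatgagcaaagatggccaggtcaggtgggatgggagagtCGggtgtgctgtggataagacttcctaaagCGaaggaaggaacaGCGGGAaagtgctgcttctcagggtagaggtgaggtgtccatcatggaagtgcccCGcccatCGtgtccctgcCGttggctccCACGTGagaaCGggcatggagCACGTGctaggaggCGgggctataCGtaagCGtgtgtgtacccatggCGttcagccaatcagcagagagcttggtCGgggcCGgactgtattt
Ddx4: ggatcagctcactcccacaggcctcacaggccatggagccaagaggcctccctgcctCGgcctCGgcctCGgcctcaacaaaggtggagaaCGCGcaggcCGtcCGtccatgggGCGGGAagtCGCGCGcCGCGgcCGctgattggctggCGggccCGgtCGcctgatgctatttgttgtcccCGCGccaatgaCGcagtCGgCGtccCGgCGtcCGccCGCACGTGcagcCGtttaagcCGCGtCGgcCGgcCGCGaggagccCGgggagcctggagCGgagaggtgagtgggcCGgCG

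The 5 windows hold 16, 17, 30, 15 and 38 CpG in the order printed. Both motifs contain a CpG, so they share bases with the CpG counted. Stag3 has 1 E-box. Sycp3 has 2 E-boxes, Ddx4 has 1, and Tex19.1 and Sohlh2 have 0. Each window but that of Sohlh2 has 1 E2F-type motif. Over the matched members the E-box, read on both strands, was in 13 of 33 windows (39.4%), beside 7.24% of all windows and 11.5% of the 9514 windows with 15 or more CpG. The E2F-type motif was in 15 (45.5%), beside 20.0% of all windows and 45.2% of those with 15 or more CpG. It was in 10 of 14 meiosis windows, 2 of 7 piRNA windows and 3 of 12 other windows. The 4 windows of genes that rose held a median of 16.5 CpG (11 to 30), and the 24 windows of members never above background 19.5 (6 to 38). A match to these letters is a description of the window and not a binding site, and the methylation of these windows was not measured on the arrays.

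**Figure D3:**
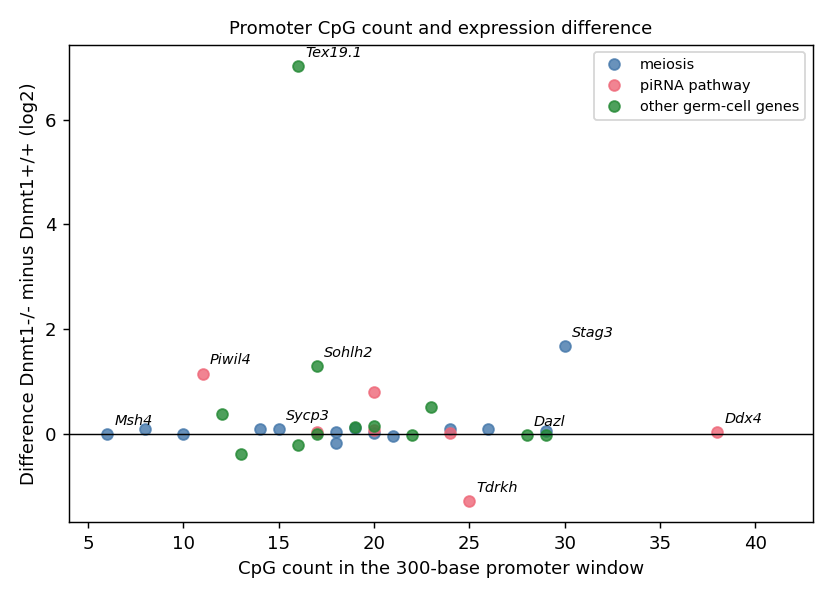
Number of CpG in the 300-base promoter window (horizontal axis) against the difference Dnmt1-/- minus Dnmt1+/+ (log2, vertical axis) for 33 germline genes coloured by role. Tex19.1, at 16 CpG, stands at 7.02, while Ddx4, with the most CpG (38), lies among the genes near 0.

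Among the 12 other germ-cell genes, Tex19.1 and Sohlh2 rose, 0 fell, and 7 were below background on every array. Tex19.1 (chromosome 11), which encodes a germ-cell and placental protein needed for male meiosis and for control of retrotransposons, measured 4.34, 4.31 and 4.31 on the Dnmt1+/+ arrays and 12.18, 10.97 and 10.88 on the Dnmt1-/- arrays. In raw intensity these were 105, 105 and 101 against 6227, 1535 and 1143. All Dnmt1+/+ arrays were at background and all Dnmt1-/- arrays were bright, with replicate 1 highest. The difference was 7.02 ± 0.30 (SE, n = 3 per group), at least 85.0-fold (adjusted p = 8e-09). This fold depended on the processing: it was 24.9-fold with the values processed by the authors.

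Sohlh2 (chromosome 3) encodes a helix-loop-helix transcription factor of early spermatogonia and oocytes. It measured 4.48, 4.53 and 4.34 on the Dnmt1+/+ arrays and 5.81, 5.57 and 5.85 on the Dnmt1-/- arrays. The 3 Dnmt1-/- values lay close together, above the background limit but low. The difference was 1.29 ± 0.21 (SE, n = 3 per group), at least 1.75-fold (adjusted p = 0.0019). The fold of Sohlh2 was smaller, 1.39-fold, with the values processed by the authors and 1.31-fold with no background correction. The other helix-loop-helix factor of the list, Figla, which directs oocyte zona pellucida genes, was below background on every array.

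The remaining 9 genes of this group besides Figla did not pass. Brdt, a testis bromodomain protein, was above background on Dnmt1-/- replicate 1 alone, at 5.60, with 4.32 and 4.26 on replicates 2 and 3 and 4.15, 4.22 and 4.27 in Dnmt1+/+ (adjusted p = 0.39). Its other 2 probes were below background on every array. Tex101, a germ-cell surface protein, likewise exceeded background on Dnmt1-/- replicate 1 alone, at 4.96 (adjusted p = 0.78). Nobox, an oocyte homeobox factor, was above background on Dnmt1+/+ replicate 2 alone, at 5.19 (adjusted p = 0.37). These 3 genes each rested on 1 array. Dazl, an RNA-binding protein that licenses germ-cell fate, Tex14, a protein of the bridges between germ cells, Taf7l, Stk31, Slc25a31 and Dpep3 were below background throughout. For Dpep3 all Dnmt1-/- values (4.43, 4.95 and 4.56) lay above all Dnmt1+/+ values (4.23, 4.28 and 4.33), and the groups of Tex14 also did not overlap, but neither passed (adjusted p = 0.21 and 0.26).

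Among the 17 meiosis genes, Stag3 rose, 0 fell, and 15 were below background on every array. Stag3 (chromosome 5), the meiotic counterpart of the cohesin subunits Stag1 and Stag2, measured 6.29, 4.75 and 5.45 in Dnmt1+/+ MEFs, above background on replicates 1 and 3. It measured 7.61, 7.06 and 6.84 in Dnmt1-/- MEFs. The groups did not overlap, but Dnmt1+/+ cells already held Stag3 signal and spread widely. The difference was 1.67 ± 0.34 (SE, n = 3 per group), 3.18-fold, and at least 3.05-fold with Dnmt1+/+ replicate 2 set at the background limit (adjusted p = 0.011). The fold was smaller, 1.73-fold, with the values processed by the authors and 1.7-fold with no background correction. The call was lost without Dnmt1+/+ replicate 2 (adjusted p = 0.058), with median scaling (0.084) and with 1 prior variance for all probes (0.11). The ubiquitous counterparts were bright and did not pass: Stag1 had a mean of 7.56 in Dnmt1+/+ and 7.82 in Dnmt1-/- MEFs (adjusted p = 0.63), and Stag2 had 9.76 and 9.59 (0.73).

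The partners of Stag3 in meiotic cohesin, Rec8 and Smc1b, were below background on every array. So were the synaptonemal complex genes Sycp1, Sycp2, Sycp3, Syce1, Syce2 and Tex12, the axis gene Hormad1, the recombinase gene Dmc1, the crossover gene Msh4, and Tex11, Tex15, Hsf2bp and Mei1, which act in recombination and synapsis. Spo11, the nuclease that makes meiotic breaks, measured 4.18, 4.50 and 4.45 in Dnmt1+/+ and 6.05, 4.45 and 4.70 in Dnmt1-/- MEFs. Only Dnmt1-/- replicate 1 was above background, the gene did not pass (difference 0.69 ± 0.33, SE, adjusted p = 0.35), and its other 2 probes were below background throughout. Smc1a, the mitotic counterpart of Smc1b, had means of 10.94 and 10.86 (adjusted p = 0.88).

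Among the 10 piRNA pathway genes with a probe, Piwil4 rose, Tdrkh fell, and 6 were below background on every array. Piwil4 (chromosome 9), the PIWI protein that directs DNA methylation of transposons in fetal male germ cells, measured 4.29, 4.25 and 4.45 in Dnmt1+/+ and 5.97, 5.55 and 4.92 in Dnmt1-/- MEFs. Dnmt1-/- replicates 1 and 2 were above background and replicate 3 was not. The difference was 1.15 ± 0.26 (SE, n = 3 per group), at least 1.46-fold (adjusted p = 0.021). The fold of Piwil4 was smaller, 1.35-fold, with the values processed by the authors and 1.28-fold with no background correction. The call was lost without Dnmt1+/+ replicate 1 (adjusted p = 0.096) or 2 (0.11) and with 1 prior variance (0.083). The other Piwil4 probe was below background on every array, with a difference of 0.03. Piwil2, the partner PIWI protein, exceeded background on Dnmt1-/- replicate 1 alone, at 4.80, and did not pass (adjusted p = 0.42).

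Tdrkh (chromosome 3) encodes a Tudor and KH domain protein of the mitochondrial surface that takes part in trimming piRNA precursors. It was bright in Dnmt1+/+ MEFs, at 9.72, 9.73 and 9.22, and lower in Dnmt1-/- MEFs, at 7.45, 9.01 and 8.38. The groups did not overlap, and Dnmt1-/- replicate 1 was lowest. The difference was -1.28 ± 0.31 (SE, n = 3 per group), 2.43-fold lower (adjusted p = 0.033). The call was lost without Dnmt1+/+ replicate 1 (adjusted p = 0.15), Dnmt1+/+ replicate 2 (0.14) or Dnmt1-/- replicate 3 (0.096) and with 1 prior variance (0.19). A second Tdrkh probe measured 6.95, 7.23 and 6.71 against 5.52, 6.76 and 6.0, lower in mean but with overlapping groups, and did not pass (adjusted p = 0.14). The third was below background on every array.

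**Figure D4:**
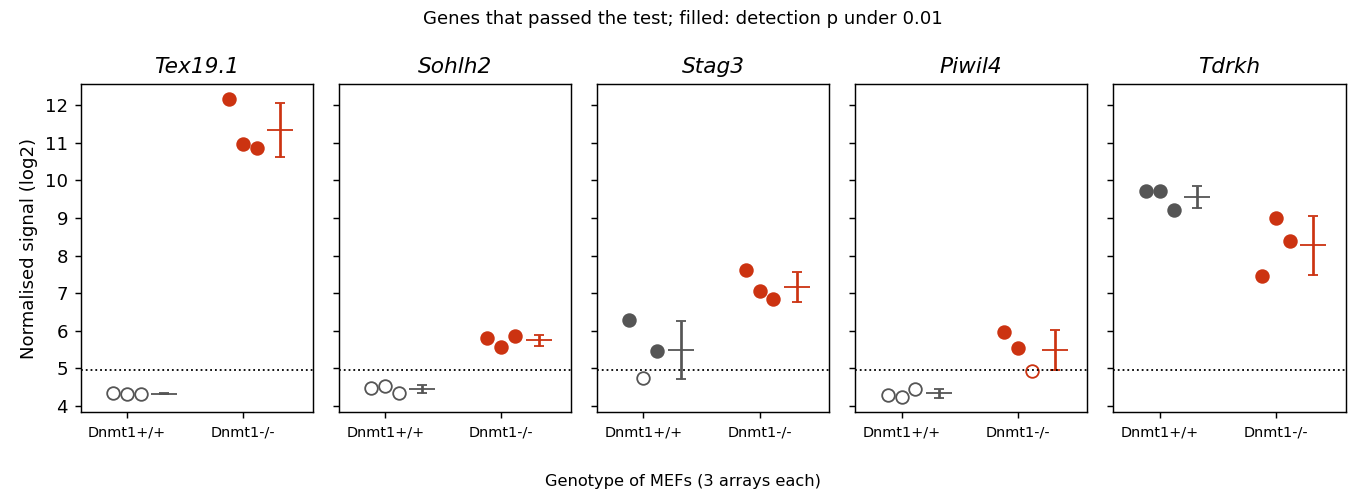
Normalised signal (log2) of the 5 germline genes that passed the test on the 3 Dnmt1+/+ and 3 Dnmt1-/- arrays, filled where the detection p was under 0.01, with the group mean ± SD beside the points and a dotted line at the lowest signal above background, averaged over the arrays. Tex19.1 goes from 4.31 to 4.34 up to 10.88 to 12.18, and Tdrkh is the gene whose Dnmt1-/- arrays (7.45 to 9.01) lie below the Dnmt1+/+ arrays.

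Mov10l1, the helicase that starts piRNA processing, measured 4.41, 4.29 and 4.18 in Dnmt1+/+ and 4.31, 5.74 and 5.24 in Dnmt1-/- MEFs. Dnmt1-/- replicates 2 and 3 were above background and replicate 1 was not, so the groups overlapped. The difference was 0.80 ± 0.29 (SE, n = 3 per group) and did not pass (adjusted p = 0.18), but it passed without Dnmt1-/- replicate 1 (1.19, adjusted p = 0.0071). Ddx4, the germ-cell RNA helicase also known as Vasa, Mael, the Tudor genes Tdrd1, Tdrd6 and Rnf17, and Asz1, a mitochondrial partner of these proteins, were below background on every array with each of their probes.

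The members above background were not the same set on each Dnmt1-/- array. Tex19.1, Sohlh2, Stag3 and Tdrkh were above it on all 3, Piwil4 on replicates 1 and 2, Mov10l1 on replicates 2 and 3, and Spo11, Brdt, Piwil2 and Tex101 on replicate 1, which was also the array with the highest raw signal and the most probes above background (16499). The part of array brightness in these single-array signals was not tested. The 4 genes that rose had a median of 1.87, 1.39 and 1.37 over the Dnmt1+/+ mean on Dnmt1-/- replicates 1, 2 and 3 (log2 difference). Of 11 members with more than 1 probe, Tdrkh and Piwil4 had probes that differed in call and 9 had no probe called.

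Further genes of the same processes were read from longer lists. Of 24 further meiosis genes with a probe, 0 rose and 0 fell. Among them 15 were below background throughout and 7 (Mlh3, Mnd1, Psmc3ip, Sgol2a, Top6bl, Mns1 and Rad51c) were above it on all 6 arrays. Of 13 further piRNA genes, Gpat2 and Tdrd7 rose and 0 fell. Gpat2, a mitochondrial acyltransferase family protein needed for piRNA production, measured 4.17, 4.24 and 4.25 in Dnmt1+/+ and 9.63, 8.87 and 9.0 in Dnmt1-/- MEFs, at least 18.8-fold higher (adjusted p = 2.7e-08). Every Dnmt1-/- array of Gpat2 was bright and every Dnmt1+/+ array at background. Tdrd7, a Tudor protein, was bright in both genotypes, with means of 8.82 and 9.53 (1.64-fold, adjusted p = 0.032), and lost its call in 8 of 14 alternative settings, with an adjusted p of 0.85 under median scaling and of up to 0.14 when any array other than Dnmt1-/- replicate 1 was left out. Of 30 further germ-cell genes, Tex13b (at least 17.4-fold, adjusted p = 6.7e-09) and Dppa4 (4.26 to 6.50 in mean, at least 2.96-fold, adjusted p = 0.0002) rose and 0 fell. Dppa4, a chromatin protein of early embryos and germ cells, had 3 other probes that did not pass. With the values processed by the authors the folds of Gpat2, Tex13b and Dppa4 were 6.58, 6.06 and 1.92. Tex19.2, the neighbouring paralogue of Tex19.1, was above background on 1 Dnmt1-/- array and did not pass (adjusted p = 0.13), and whether either probe binds both transcripts was not tested.

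Somatic counterparts of the members were mostly present in both genotypes. Of 17 with a probe, 13 were above background on all 6 arrays. The other 4, Rad21 and Taf7 among them, were below it on every array, and whether their RNA was absent was not tested. Of the 17, 0 rose and 1 fell, Fkbp5 (2.02-fold, adjusted p = 0.02). Fkbp5 lost its call in 5 of 14 alternative settings, among them without Dnmt1+/+ replicate 2 or 3 or Dnmt1-/- replicate 3 (adjusted p up to 0.11). Of the somatic relatives of the PIWI genes, Ago2 had means of 8.99 and 8.52 (adjusted p = 0.21) and Ago1 was below background on every array. Tdrd3, a Tudor gene of somatic cells, had means of 7.76 and 7.36 (adjusted p = 0.39), and Mov10, the relative of Mov10l1, 5.53 and 6.47 (0.081).

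Of 16 genes for factors that silence germline promoters, each read from its brightest probe, 12 were above background on all 6 arrays. Rnf2 and Dnmt3a were below it on every array, and whether their RNA was absent was not tested. Of the 16, 0 rose and 2 fell. These were Dnmt1, given above, and Pcgf6, a subunit of the Polycomb complex with E2F6 and MGA, with means of 9.07 and 8.09 (1.97-fold lower, adjusted p = 0.023). Pcgf6 lost its call in 6 of 14 alternative settings, among them without Dnmt1+/+ replicate 1 or 2 or Dnmt1-/- replicate 3 (adjusted p up to 0.13). E2f6, which binds the E2F-type motif searched above, had means of 9.28 and 9.23 (adjusted p = 0.94). Uhrf1, the partner of DNMT1, had 11.42 and 11.63 (0.54). Mga and Max were close to background, above it on 2 of 3 arrays of each genotype, and did not pass. Ring1 had means of 7.62 and 8.38 on its brightest probe and did not pass (adjusted p = 0.097). Its other probe rose, with means of 5.69 and 6.60 (adjusted p = 0.035).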

How the data were processed

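RNA of 3 Dnmt1+/+ and 3 Dnmt1-/- samples was hybridised, 1 array each. Deposited by the authors were raw values, namely a linear intensity and a detection p-value for every probe on every array, and a table of intensity values processed by the authors with lumi (background subtraction, variance-stabilising transformation, robust spline normalisation), which is on a linear scale. The build used for probe design is not given in the sources used here.

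The raw intensity values were used. The neqc function of limma 3.58.1 (R 4.3.3) was applied to them (negative control level estimated through the detection p-values, offset 16, quantile normalisation, log2). All 45281 probes were fitted with lmFit and eBayes with an intensity trend, as a two-sided test of group with no other term, no filter on dim probes, and Benjamini-Hochberg adjustment over all probes. A fold bound below background is no minimum under another processing. Only the limma fit was tested on simulated data, with independent normal noise around the mean of each probe. The normalisation, detection counts, fold bounds and promoter counts were not tested in this way. In the platform annotation 34885 probes carry 1 gene symbol, 18 carry several and 10378 carry none, and only the first kind was named. Promoter windows are RefSeq sequences of GRCm38.p6, matched by symbol, with the first window of each gene. The members, the lists and the tests were chosen with earlier results of these data known. The text names every member, up to 4 passing genes of each further list, the counterparts of members that passed, and Dnmt1; genes named beyond these were chosen after their values were seen. The number of arrays limits the precision.

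Alternatives were a detection filter, 1 prior variance, median scaling, cyclic loess, no background correction, the authors' values, an offset of 50, a replicate block, other detection thresholds, every probe of a gene, and each array left out. Same-numbered arrays deviated from their group means with correlations of -0.186, 0.238 and -0.105, so the numbers were not taken as pairs.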

Additional observations from a re-analysis of the deposited data

How the results depend on the processing

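Of the 5 germline genes called, Tex19.1 and Sohlh2 kept their call in every alternative fit, Stag3, Piwil4 and Tdrkh lost theirs in at least 1, and 0 turned direction. With 1 prior variance for all probes 2 genes rose and 0 fell. With 1 array left out 2 to 5 rose and 0 to 1 fell: the lowest counts were without Dnmt1+/+ replicate 2, and the fifth rise, without Dnmt1-/- replicate 1, was Mov10l1. The count above background on 3 of 3 Dnmt1-/- and 0 of 3 Dnmt1+/+ arrays was 2. It was 1 at a detection p under 0.001, where Sohlh2 was lost (detection p of 0.00107 on Dnmt1-/- replicate 2). It was 3 at a detection p under 0.05 (with Piwil4), without Dnmt1-/- replicate 1 (with Mov10l1) and without Dnmt1-/- replicate 3 (with Piwil4). With a replicate block 4 members rose and 1 fell, and no call of a member changed, while Tdrd7 and Pcgf6 lost theirs; over all genes 698 rose and 416 fell, beside 773 and 532 without the block. Over all genes, median scaling called 338 rises and 333 falls, and leaving out 1 array 466 to 833 rises and 269 to 580 falls. A filter on detection on at least 3 of 6 arrays kept 4 of the 39 members, so Piwil4 was not fitted there. Signal close to background limits what can be said of the 28 genes never above it.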
